A study of Mus musculus with 6 samples.

Results

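Pyruvate made by glycolysis reaches the mitochondrial matrix and its first enzymes through a short list of proteins, and their transcripts were examined here in lung type 2 innate lymphoid cells (ILC2s). The genes were taken by name from the deposited table of normalized counts and comprise 10 of its 16381 genes. They are the carrier subunits *Mpc1* and *Mpc2*, the pyruvate dehydrogenase subunits *Pdhb*, *Dlat* and *Dld*, the kinases *Pdk1* and *Pdk2*, the phosphatases *Pdp1* and *Pdp2*, and pyruvate carboxylase, *Pcx*. Activated ILC2s (aILC2s) were sorted from lungs of wild-type BALB/cJ mice that had received 0.5 µg IL-33 a day for 3 days, and were then kept in culture for 24 h with melatonin at 250 µM or with the solvent DMSO (vehicle). Each group had 3 samples (n = 3). The study's methods give female mice aged 6 to 8 weeks and a sort of CD45+, lineage-negative, ST2+ CD127+ cells to over 95% purity. All mice had received IL-33, so there was no unchallenged group. The sources do not say whether samples of a group were separate animals or cultures. Melatonin replicate 1 held Y-linked transcripts and melatonin replicates 2 and 3 did not, so replicate 1 came from other animals than these. The p-values measure the spread between samples, which may be technical within vehicle and between melatonin replicates 2 and 3. The question of this comparison was how melatonin altered transcripts that serve glucose and pyruvate use.

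Pyruvate crosses the inner mitochondrial membrane through the mitochondrial pyruvate carrier, a pair of MPC1 and MPC2. In the matrix the pyruvate dehydrogenase complex turns it into acetyl-CoA for the TCA cycle, and pyruvate carboxylase turns it into oxaloacetate, which refills the cycle. Pyruvate dehydrogenase kinases shut the complex by phosphorylating its alpha subunit, and pyruvate dehydrogenase phosphatases reopen it, so control of this step is largely post-translational and is not read by transcript levels. Activated lymphocytes divide pyruvate between lactate and these mitochondrial routes.

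The promoters of the 3 genes that rose, *Pcx*, *Pdk2* and *Pdp1*, and of *Pdp2*, a related gene that was not called, are shown so that matches to known motifs can be seen beside the expression values. Each is the 250 bases before the start of the Ensembl canonical transcript in GRCm39 (GENCODE M39), 5′ to 3′ on the gene's strand, with matches to the E-box CACGTG and to the antioxidant response element TGACNNNGC, on either strand, in capitals.
*Pcx*, chr19:4560235-4560484, plus strand: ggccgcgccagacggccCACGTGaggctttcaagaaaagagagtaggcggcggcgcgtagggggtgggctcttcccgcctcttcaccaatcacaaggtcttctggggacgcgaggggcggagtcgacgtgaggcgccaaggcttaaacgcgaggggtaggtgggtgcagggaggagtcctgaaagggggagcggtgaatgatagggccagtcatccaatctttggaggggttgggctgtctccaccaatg
*Pdk2*, chr11:94932241-94932490, minus strand: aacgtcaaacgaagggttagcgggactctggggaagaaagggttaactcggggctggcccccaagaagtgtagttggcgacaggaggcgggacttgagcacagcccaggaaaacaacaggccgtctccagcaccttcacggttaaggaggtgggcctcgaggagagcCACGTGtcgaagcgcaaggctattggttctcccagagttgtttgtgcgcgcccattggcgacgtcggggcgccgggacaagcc
*Pdp1*, chr4:11966453-11966702, minus strand: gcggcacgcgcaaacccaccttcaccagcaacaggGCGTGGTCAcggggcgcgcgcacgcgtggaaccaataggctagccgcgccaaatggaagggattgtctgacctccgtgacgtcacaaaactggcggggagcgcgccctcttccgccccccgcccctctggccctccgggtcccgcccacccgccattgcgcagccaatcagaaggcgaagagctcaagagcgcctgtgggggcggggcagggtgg
*Pdp2*, chr8:105317802-105318051, plus strand: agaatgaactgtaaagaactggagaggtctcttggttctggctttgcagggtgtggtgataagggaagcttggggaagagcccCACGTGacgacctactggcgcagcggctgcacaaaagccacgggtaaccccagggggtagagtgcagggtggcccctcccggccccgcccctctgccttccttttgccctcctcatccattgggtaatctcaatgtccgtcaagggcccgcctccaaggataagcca
The E-box lay 233 to 228 bases before the start in *Pcx*, 83 to 78 bases before it in *Pdk2* and 167 to 162 bases before it in *Pdp2*. It was found in 3 of the 10 genes and in 6.26% of 21770 promoters of protein-coding genes of the same length. The antioxidant response element, the motif read by NRF2, lay 215 to 207 bases before the start in *Pdp1* on the opposite strand as GCGTGGTCA. It also lay 35 to 27 bases before the start in *Mpc1* as TGACCGAGC. Thus 2 of the 10 genes held it, against 9.69% of all promoters. The hypoxia response core ACGTG, which lies within every CACGTG, was found in 4 of the 10 genes and in 17.0% of promoters. Outside an E-box it occurred in *Pcx*, 125 to 121 bases before the start, and in *Pdhb*, 206 to 202 bases before it on the opposite strand. A motif match is a run of letters and not a measured binding site, and genes with and without a change held each of these motifs. The *Pcx* and *Mpc1* windows belong to canonical starts that lie inside the annotated genes and not at their first bases. In *Mpc1* that start is at 8503286 and the gene begins at 8501736. The canonical starts of *Pdk2* and *Pdp1* also lie inside their genes, but close to the first base.

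Melatonin raised 3 of the 10 transcripts and lowered 0 of them in limma's test on log2(normalized count + 1), with Benjamini-Hochberg adjustment over 14419 genes. *Pcx* rose 2.83-fold, *Pdk2* 1.94-fold and *Pdp1* 1.74-fold, as ratios of mean normalized counts. The carrier, the 3 subunits of the complex, *Pdk1* and *Pdp2* did not pass the test. Over all genes tested, 49.2% were called in either direction, 24.5% higher and 24.7% lower, so the share called among the 10 genes was not above that of the table. The split over all genes, 3529 higher and 3565 lower, was 2654 and 4178 with correction for transcript length. For the same 3 genes all melatonin samples lay above all vehicle samples, which held for 30.0% of genes tested, while 30.3% lay wholly below. For the other 7 the groups overlapped. The median log2 fold change was 0.07 over the 10 genes and −0.00 over all genes tested. In bulk samples a smaller number of cells of a type and less RNA per cell cannot be told apart.

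**Figure D1:**
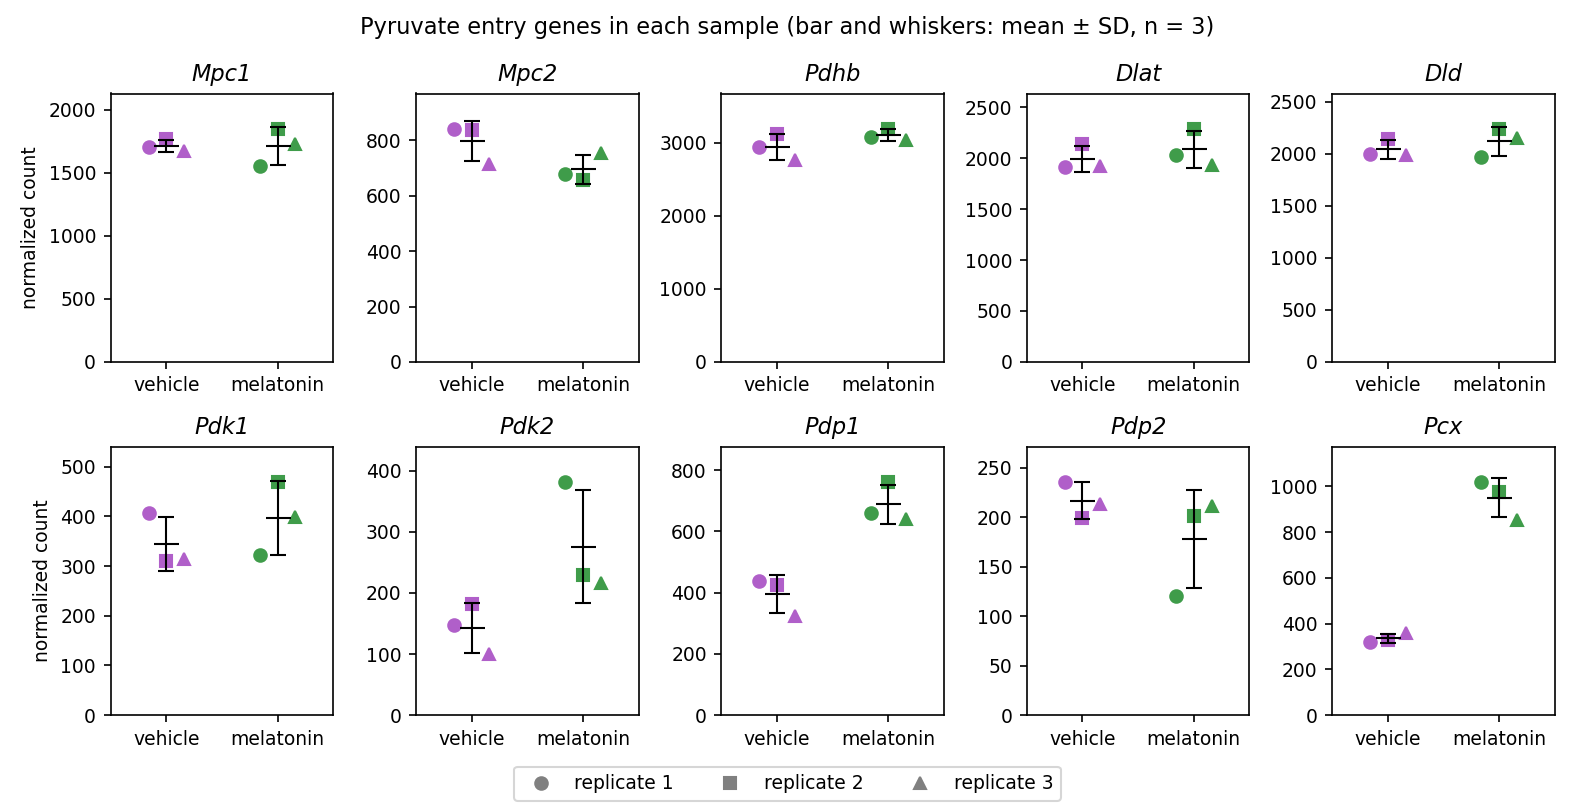
Normalized counts (vertical axes, from 0) of the 10 genes in each vehicle (purple) and melatonin (green) sample, with symbols for the replicate and bars for mean ± SD (n = 3). *Pcx* lay at 320.2 to 358 in vehicle and 854 to 1019.7 with melatonin, whereas points of *Mpc1*, *Pdhb*, *Dlat* and *Dld* from the groups lay among each other.

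The libraries differed in ways beside the treatment. Estimated counts per library ranged from 17056267 to 20511700. Y-linked transcripts summed to between 2679.7 and 2993 normalized counts in the vehicle libraries and to 3038, 0 and 0 in melatonin replicates 1, 2 and 3, and *Xist* stood at 5.81 to 13.6 in vehicle and at 0, 579 and 1091 in the same melatonin libraries. The stated sex of the mice therefore goes against 4 of the 6 libraries. All vehicle libraries held Y-linked transcripts and melatonin replicates 2 and 3 held none. Sex thus went partly with the treatment for every gene, X-linked ones included, and its part in the calls was not tested. The library names in the labels also hold a separate run of numbers for each treatment. What these numbers mark is not stated, and anything they mark cannot be told apart from the treatment. All 12 ILC2 markers were listed. They mix effector genes, such as *Il5* and *Il13*, with lineage genes, such as *Gata3*, and do not measure identity alone. By limma 2 of them rose, 7 fell and 3 (*Ptprc*, *Gata3* and *Icos*) were not called, beside 24.5% higher and 24.7% lower among all genes tested. *Il1rl1*, which encodes ST2, and *Rora* rose by 0.63 and 0.64, while *Il7r*, *Thy1*, *Klrg1*, *Areg*, *Il5*, *Il13* and *Il2ra* fell, with log2 fold changes from −0.75 for *Il5* to −2.88 for *Thy1*. The summed level of the 12 was 197261 to 210885 in vehicle and 138671 to 157921 with melatonin, and most of that difference came from *Il5* (78846 to 85795 and 40304 to 57764) and *Il2ra* (50819 to 52389 and 21436 to 36551). Of the markers of eosinophils, basophils and mast cells, 3 of 6 were listed. Only *Cpa3* had enough counts to be tested, and it was not called (0.07, limma adjusted p = 0.957). *Siglecf* and *Mcpt8* were not tested. Sums over the 3 listed markers were 9.37 to 18.9 in vehicle and 1.87 to 37.2 with melatonin. Markers of several other cells moved in the same comparison. Those of macrophages and monocytes, 4 of 4 listed, summed to 1284 to 1463 in vehicle and 362 to 778 with melatonin. Those of NK cells, 3 of 3 listed, went from 111 to 125 down to 0 to 4.02. Most of the vehicle sum was *Ncr1* (101 to 114), while *Klrb1c* and *Eomes* stayed under 10 in each sample and were not tested. *Pecam1*, the 1 of 2 endothelial markers that was listed (without *Cdh5*), went from 1001 to 1066 down to 310 to 416. The sort had removed cells bearing, among others, CD3, CD4, CD5, CD335, CD11b or CD11c, and kept CD45+ cells. T cell markers, 3 of 6 listed and without *Cd4*, *Cd8a* and *Cd5*, summed to 1202 to 1336 and 458 to 869. Most of these sums was *Cd3g* (1004 to 1097 in vehicle and 417 to 751 with melatonin). *Trac*, of the T cell receptor, was at 5.6 to 13.1 and 0 to 1.87. Epithelial markers, 4 of 4 listed, summed to 877 to 2173 in vehicle and 1022 to 1236 with melatonin, but 3 of them fell and 1 rose. *Scgb1a1* went from 21.5 to 1045 in vehicle to 0 to 1.01, *Sftpc* from 122 to 389 to 3.02 to 6.54 and *Krt8* from 4.67 to 105 to 0 in each melatonin sample, whereas *Epcam* rose from 623 to 745 to 1016 to 1229.8. The high values of 1045, 389 and 105 were all from vehicle replicate 3. In the other vehicle samples *Scgb1a1* was at 21.5 and 95.2, *Sftpc* at 122 and 155 and *Krt8* at 4.67 and 8.35. Vehicle replicate 3 also held the lowest *Pdk2* and *Pdp1* of its group. The part of these cells in the changes of pyruvate genes was not tested.

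The mitochondrial pyruvate carrier is the door for pyruvate, and both of its subunits are needed for transport. *Mpc1* (ENSMUSG00000023861, chr17:8501736-8516498) gave 1707, 1764 and 1672 normalized counts in vehicle replicates 1, 2 and 3, and 1554, 1849.8 and 1729 in melatonin replicates 1, 2 and 3. Melatonin samples lay on both sides of the vehicle samples. The means were 1714 ± 46.6 and 1711 ± 149 (SD, n = 3). The log2 fold change was −0.01 ± 0.087 (SE) by limma, with a 95% interval of −0.20 to 0.19 and adjusted p = 0.957. That interval spans both directions, and the sign changed in 5 of 20 alternatives. *Mpc2* (ENSMUSG00000026568, chr1:165287125-165308785) gave 843, 839 and 716 in vehicle and 677, 656 and 754 with melatonin. Melatonin replicate 3 lay above vehicle replicate 3, so the groups overlapped although the other 4 samples were ordered. The log2 fold change of *Mpc2* was −0.20 (SE 0.105, 95% interval −0.44 to 0.04, limma adjusted p = 0.145). It remained negative in each of 20 alternatives, between −0.28 and −0.12, and was called in 0 of them.

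The log2 ratio of *Mpc1* to *Mpc2* within a sample, which does not depend on how samples are scaled to each other, was 1.02, 1.07 and 1.22 in vehicle and 1.20, 1.50 and 1.20 with melatonin. These ranges overlapped, and the means differed by 0.19, or by 0.09 without melatonin replicate 2. A copy of *Mpc1* and a gene that overlaps *Mpc2* limit what their counts can tell. A processed pseudogene, *Mpc1-ps* on chromosome 12, is identical to *Mpc1* over 261 of its 1128 transcript bases and was listed at 283 to 342 normalized counts with a log2 fold change of 0.05 (limma adjusted p = 0.77). *Mpc2* overlaps *Dcaf6* on the opposite strand and shares 314 bases with it. *Dcaf6* was listed at 57.2 to 148 and rose by 0.93 (limma adjusted p = 0.00508). Whether counting used strand is not given in the sources used here, so reads of such a pair cannot be assigned with certainty.

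None of the 3 core subunits of the pyruvate dehydrogenase complex passed the test. *Pdhb* (ENSMUSG00000021748, chr14:14296739-14304802), the beta subunit of the pyruvate decarboxylase that starts the reaction, gave 2940.4, 3122 and 2769 in vehicle and 3073, 3194 and 3037 with melatonin. Vehicle replicate 2 lay within the melatonin range. Its log2 fold change was 0.08 (SE 0.076, 95% interval −0.10 to 0.25, limma adjusted p = 0.425). *Dlat* (ENSMUSG00000000168, chr9:50543457-50571277), the lipoyl-bearing acetyltransferase of the core, gave 1918, 2137 and 1919 in vehicle and 2030.1, 2292 and 1938 with melatonin. The highest sample of each group was replicate 2, and the groups overlapped. Its log2 fold change was 0.07 (SE 0.091, 95% interval −0.14 to 0.27, limma adjusted p = 0.573). *Dld* (ENSMUSG00000020664, chr12:31379323-31401452), the dehydrogenase that reoxidizes the lipoyl arm and also serves the related oxo acid dehydrogenases, gave 1995, 2145 and 1986 in vehicle and 1967, 2241 and 2147 with melatonin. The lowest of the 6 values was a melatonin sample, as was the highest. Its log2 fold change was 0.05 (SE 0.0816, 95% interval −0.13 to 0.24, limma adjusted p = 0.621).

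For these 3 subunits the intervals of the main analysis leave room for changes of at most 0.27 on the log2 scale upward and 0.14 downward. The estimate for *Dld* with correction for transcript length, given below, lay beyond that lower limit. The coefficients of variation over replicates were 4.37% to 6.34% in vehicle and 2.65% to 8.80% with melatonin. Proportions between the subunits were read within each sample. For *Dlat* to *Pdhb* the log2 ratio was −0.62, −0.55 and −0.53 in vehicle and −0.60, −0.48 and −0.65 with melatonin. That of *Dld* to *Pdhb* was −0.56, −0.54 and −0.48 in vehicle and −0.64, −0.51 and −0.50 with melatonin. Mean differences in these ratios were −0.01 and −0.03, with overlapping groups. Signs of the small subunit changes were not stable. Correction for transcript length gave −0.13 for *Dlat* and −0.19 for *Dld*, and neither was called. A processed pseudogene of *Pdhb*, *Gm6123*, matches 1079 of its 1522 transcript bases at 97.0% identity, was listed at 418 to 487 and had a log2 fold change of 0.02 (limma adjusted p = 0.893). *Pdhb* also shares 338 bases with *Pxk* on the opposite strand, which rose by 0.39 (limma adjusted p = 0.00344).

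Other parts of the complex were read from companion genes. *Pdha1*, the X-linked alpha subunit that the kinases phosphorylate, had means of 4177 ± 179 and 3989 ± 322 and a log2 fold change of −0.07 (limma adjusted p = 0.515). It was called lower in 1 of 20 alternatives, correction for transcript length, at −0.27 (limma adjusted p = 0.0133). *Pdhx*, which anchors DLD in the core, gave 674, 705 and 671 in vehicle and 979.5, 815 and 754 with melatonin. Its groups did not overlap and it rose by 0.31 (95% interval 0.05 to 0.56, limma adjusted p = 0.0475). That call is close to the threshold, since it held in 8 of 20 alternatives and, with 1 sample left out, only without melatonin replicate 3. In the other 5 of these analyses the adjusted p lay between 0.0765 and 0.12, with log2 fold changes of 0.20 to 0.33. Correction for transcript length gave 0.06 (limma adjusted p = 0.608) and correction for GC content 0.16 (limma adjusted p = 0.265). *Pdpr*, the regulatory subunit of the phosphatase, had a log2 fold change of 0.27 (limma adjusted p = 0.191), with 357 in melatonin replicate 3 and 219 to 255 in the other 5 samples. Without melatonin replicate 3 it was 0.10 (limma adjusted p = 0.545).

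The kinases restrain the complex. *Pdk1* (ENSMUSG00000006494, chr2:71703488-71734202), known as a hypoxia-induced member of the family, gave 407, 310.1 and 315 in vehicle and 322, 469.8 and 399 with melatonin. Each group held both low and high samples. The log2 fold change was 0.20 (SE 0.168, 95% interval −0.18 to 0.58, limma adjusted p = 0.344). It was 0.07 without melatonin replicate 2 and 0.34 without melatonin replicate 1, and not called in either. *Pdk2* (ENSMUSG00000038967, chr11:94914929-94932242), the widely expressed kinase that responds to acetyl-CoA and NADH, gave 147, 182 and 99.7 in vehicle and 382, 229 and 217 with melatonin. All melatonin samples were above all vehicle samples, and melatonin replicate 1 stood well above the other melatonin samples. The means were 143 ± 41.2 and 276 ± 91.8 (SD, n = 3), and the log2 fold change was 0.94 (SE 0.272, 95% interval 0.33 to 1.56, limma adjusted p = 0.019). The call was lost in 2 of 20 alternatives, at adjusted p = 0.0566 in limma without the trend and at 0.0661 without vehicle replicate 3, where the log2 fold change was 0.71. Without melatonin replicate 1 it was 0.69 (adjusted p = 0.0421 by limma). Among the 4 libraries with Y-linked transcripts, of which 1 is a melatonin library, it was 1.46. The replicates of *Pdk2* were the most scattered among the 10 genes, with coefficients of variation of 28.9% and 33.2%.

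The third kinase, X-linked *Pdk3*, gave 1522, 1603 and 1438 in vehicle and 1228, 1409 and 1295 with melatonin. All melatonin samples were below all vehicle samples, yet it was not called, at a log2 fold change of −0.22 (95% interval −0.41 to −0.02, limma adjusted p = 0.0675). It was called lower in 5 of 20 alternatives, among them correction for transcript length, at −0.36 (limma adjusted p = 0.0126). *Pdk4* is named in the list of companions but was not among the listed genes, so it could not be tested. Set against *Pdk2* in the same sample, the log2 ratio of *Pdk1* was 1.47, 0.77 and 1.66 in vehicle and −0.25, 1.03 and 0.88 with melatonin. The value of melatonin replicate 1 was the lowest of the 6 and the groups overlapped.

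The phosphatases release the complex from the kinases. *Pdp1* (ENSMUSG00000049225, chr4:11957712-11966468), the calcium-sensitive catalytic subunit, gave 438, 425 and 325 in vehicle and 661, 762 and 640.4 with melatonin. The lowest melatonin sample was well above the highest vehicle sample. The means were 396 ± 61.7 and 688 ± 64.8 (SD, n = 3), and it rose by 0.80 on the log2 scale (SE 0.138, 95% interval 0.49 to 1.11, limma adjusted p = 0.00172). The call held in 20 of 20 alternatives, between 0.56 and 0.88, with 0.56 under correction for transcript length. *Pdp2* (ENSMUSG00000048371, chr8:105318052-105325671), the calcium-insensitive and insulin-responsive form, gave 236, 199.6 and 214 in vehicle and 120.5, 201 and 211 with melatonin. Melatonin replicate 1 was far below the other 5 samples, which overlapped. The log2 fold change was −0.32 (SE 0.217, 95% interval −0.82 to 0.17, limma adjusted p = 0.24). It was −0.07 without melatonin replicate 1. In the libraries with Y-linked transcripts alone, where that sample was the only melatonin library, the estimate for *Pdp2* was −0.84. The call there borrowed its spread from the vehicle samples and restates that 1 low value.

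Among the 10 genes, 1 of 2 kinases and 1 of 2 phosphatases rose, in a table where 24.5% of genes tested rose. Ratios within a sample described how the pairs shifted. The log2 ratio of *Pdp1* to *Pdp2* was 0.89, 1.09 and 0.60 in vehicle and 2.46, 1.92 and 1.60 with melatonin, without overlap and with a mean difference of 1.13. For *Pdk1* to *Pdp1* it was −0.11, −0.46 and −0.05 in vehicle and −1.04, −0.70 and −0.68 with melatonin, also without overlap, and differed by −0.60. That of *Pdk2* to *Pdp2* went the other way, from −0.69, −0.14 and −1.10 to 1.67, 0.19 and 0.04, with a mean difference of 1.27 that was 0.76 without melatonin replicate 1. The kinase to phosphatase ratio thus was lower for *Pdk1* to *Pdp1* and higher for *Pdk2* to *Pdp2*. Ratios of *Pdk2* to *Pdp1*, which both rose, and of *Pdk1* to *Pdp2* were not computed. No p was computed for ratios.

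**Figure D2:**
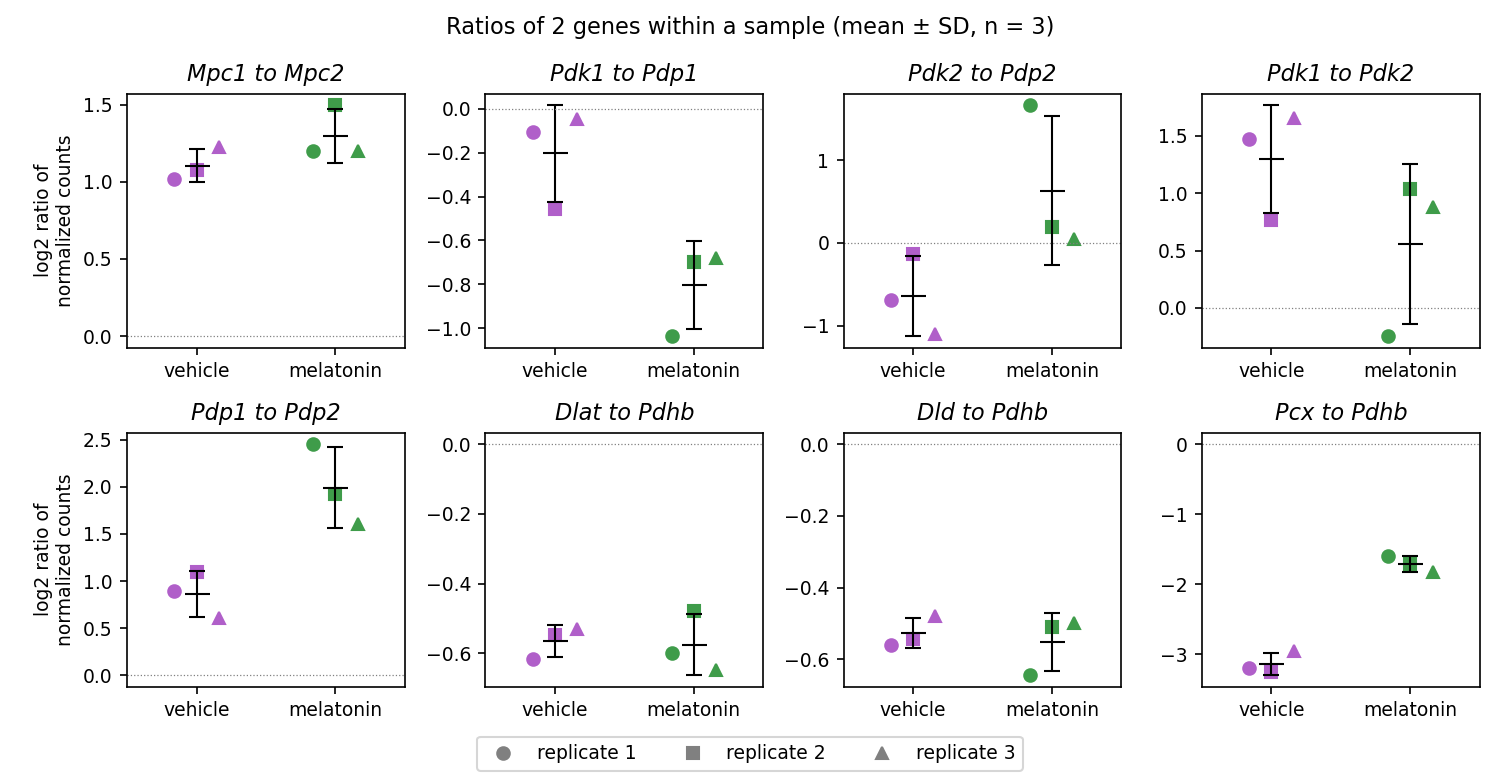
Log2 ratio of the normalized counts of 2 genes in the same sample (vertical axes) for 8 pairs, in vehicle (purple) and melatonin (green), with bars for mean ± SD (n = 3). *Pdp1* to *Pdp2*, *Pdk2* to *Pdp2* and *Pcx* to *Pdhb* were higher in every melatonin sample than in any vehicle sample, *Pdk1* to *Pdp1* was lower, and the other 4 overlapped.

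Pyruvate carboxylase showed the largest change of the 10 genes. *Pcx* (ENSMUSG00000024892, chr19:4559902-4672189), the biotin enzyme that makes oxaloacetate, gave 320.2, 327 and 358 normalized counts in vehicle and 1019.7, 973 and 854 with melatonin. The lowest melatonin sample was more than double the highest vehicle sample. The means were 335 ± 20.0 and 949 ± 85.2 (SD, n = 3). It rose by 1.50 on the log2 scale (SE 0.107, 95% interval 1.26 to 1.74, limma adjusted p = 3.26e-05). In 20 of 20 alternatives the call held, with values between 1.26 and 1.61. The lower end came from correction for transcript length. The log2 ratio of *Pcx* to *Pdhb*, the route to oxaloacetate against the route to acetyl-CoA at the transcript level, was −3.20, −3.25 and −2.95 in vehicle and −1.59, −1.71 and −1.83 with melatonin. The groups did not overlap, and the means differed by 1.42. The *Pcx* locus also holds *Rce1* and *Lrfn4* on the opposite strand, listed at 971 to 1107 and 27.1 to 78.7 normalized counts, and neither was called (limma adjusted p = 0.456 and 0.0605). Their log2 fold changes were −0.08 and −0.79, opposite in sign to that of *Pcx*.

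**Figure D3:**
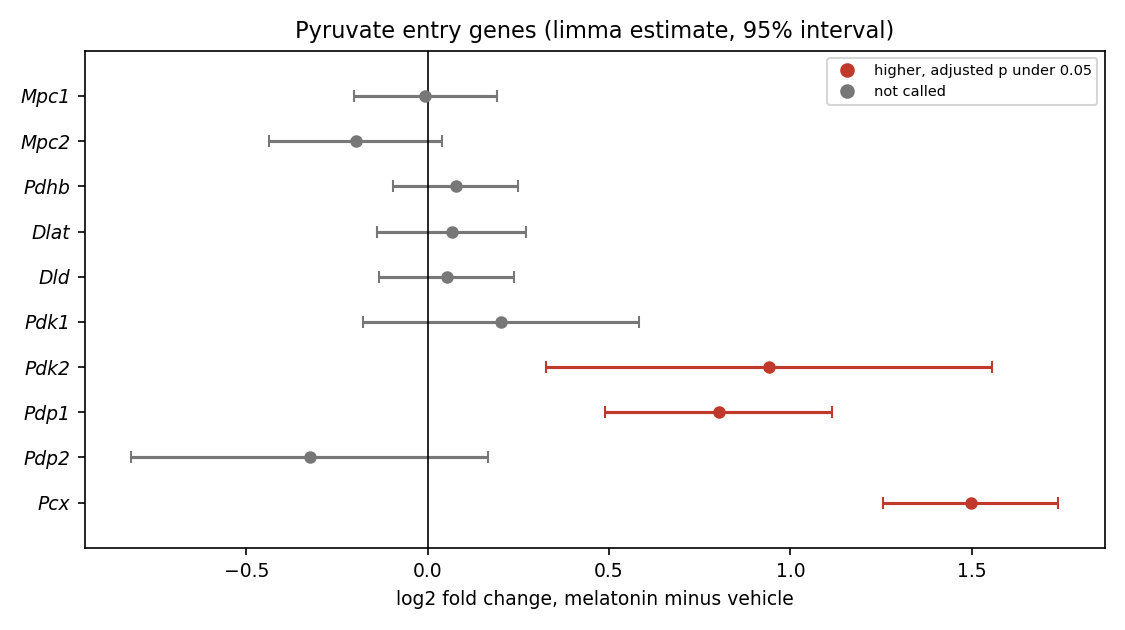
Log2 fold change of melatonin over vehicle (horizontal axis) for the 10 genes, as limma estimates with 95% intervals, with genes of adjusted p under 0.05 in red. The intervals of *Pcx*, *Pdp1* and *Pdk2* lay above 0, with the widest for *Pdk2* (0.33 to 1.56), and those of the other 7 crossed 0.

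Levels of different genes were compared as normalized counts per kb of the canonical transcript. In vehicle the order was *Pdhb* at 1934 ± 116, *Mpc1* at 1519.8 ± 41.3, *Mpc2* at 575 ± 52.0, *Dld* at 454 ± 19.8, *Dlat* at 297 ± 18.8, *Pdp1* at 84.8 ± 13.2, *Pcx* at 79.2 ± 4.74, *Pdk1* at 65.3 ± 10.4, *Pdk2* at 61.9 ± 17.9 and *Pdp2* at 37.8 ± 3.21 (SD, n = 3). Among the 10 genes, the carrier and complex subunits thus had the higher levels and the kinases, phosphatases and carboxylase the lower ones. In the lower group, *Pdp1*, *Pcx*, *Pdk1* and *Pdk2* overlapped in their vehicle ranges, from 43.2 for the lowest *Pdk2* to 93.7 for the highest *Pdp1*, so their order was not resolved. With melatonin *Pcx* stood at 225 ± 20.2 per kb (202 to 241) and *Pdp1* at 147 ± 13.9 (137 to 163), and these no longer overlapped. *Pdk2* was at 119.8 ± 39.8 and *Pdk1* at 75.4 ± 14.0, and *Pdp2* stayed the lowest at 31.0 ± 8.66. *Pdk3*, at 619 ± 33.5 per kb in vehicle, did not follow this split and stood above *Pdk1* and *Pdk2* in both groups, at 533 ± 37.3 with melatonin. The order depends on which transcript a gene uses. Per kb of all exons together, *Mpc2* was at 99.2 and *Dlat* at 137 in vehicle, and *Pdk2* at 16.6 was below *Pdp2* at 37.3. On that scale the split did not hold with melatonin. *Pcx* at 152 and *Pdp1* at 125 stood above *Mpc2* at 86.3, and *Pcx* also above *Dlat* at 143.

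Of 33 companion genes of the same step and its neighbours, 31 were listed and tested, of which 7 rose, 6 fell and 18 were not called, with a median log2 fold change of 0.09. Over all genes tested 24.5% were called higher and 24.7% lower, so the share called in this list was not above that of the table. *Me3* was, like *Pdk4*, not among the listed genes. This list was drawn up with earlier results of these data known. Among cofactor genes, 2 of 6 rose and 0 fell, against those shares of all genes. *Hlcs*, the ligase that attaches biotin to carboxylases including PCX, gave 124, 195 and 207 in vehicle and 259, 289.5 and 296 with melatonin. It rose by 0.71 (95% interval 0.26 to 1.16, limma adjusted p = 0.0165) without overlap between the groups, and was called in 17 of 20 alternatives. The call was lost without melatonin replicate 2 (0.69, limma adjusted p = 0.0509) and with correction for transcript length (0.48, limma adjusted p = 0.0937). It was also lost in the libraries with Y-linked transcripts (0.59), which include 1 melatonin sample. *Slc19a2*, a plasma membrane transporter of thiamine, the precursor of a cofactor of the complex, rose by 0.28 (limma adjusted p = 0.0482), a call that held in 7 of 20 alternatives, was 0.03 with correction for transcript length and, when 1 sample was left out, held only without melatonin replicate 3, with adjusted p of 0.0794 to 0.146 in the other 5 analyses.

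Among genes of pyruvate, lactate and alanine exchange, 0 of 6 rose and 3 fell, beside 24.5% and 24.7% of all genes tested. *Ldha*, which makes lactate from pyruvate, fell from 94077 ± 2208 to 47758 ± 3886, by 0.98 on the log2 scale (limma adjusted p = 0.00012). The monocarboxylate transporters *Slc16a1* and *Slc16a3* fell by 0.57 and 0.55 (limma adjusted p = 0.00867 and 0.00445), with log2 fold changes over the alternatives of −0.91 to −0.40 and −0.82 to −0.42. *Pkm*, whose enzyme makes pyruvate, was not called at −0.08 (limma adjusted p = 0.528). These calls on the lactate side stood beside the carrier subunits and *Pdhb*, *Dlat* and *Dld*, which were not called.

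Downstream of the mitochondrial enzymes, 2 of 7 genes of malate, oxaloacetate and citrate rose and 1 fell, where 49.2% of all genes tested were called. *Me1*, the cytosolic malic enzyme that yields pyruvate and NADPH, gave 336, 468 and 459 in vehicle and 730.2, 867 and 835 with melatonin. It rose by 0.96 (95% interval 0.63 to 1.28, limma adjusted p = 0.000903), without overlap and in 20 of 20 alternatives. *Acly*, which cleaves citrate to acetyl-CoA and oxaloacetate in the cytosol, rose by 0.43 (limma adjusted p = 0.00315), a call lost in 1 of 20 alternatives, correction for transcript length (0.19). *Cs*, the citrate synthase that joins the acetyl-CoA and oxaloacetate made from pyruvate, fell from 10705 ± 187 to 8073 ± 263, by 0.41 on the log2 scale (limma adjusted p = 0.00164). It was called in 20 of 20 alternatives, from −0.61 with correction for transcript length to −0.25 with quantile normalization. *Pcx*, *Me1* and *Acly* were thus higher and *Cs* lower in the same 3 melatonin samples.

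Complexes built like pyruvate dehydrogenase gave 2 genes higher and 2 lower of 8, a share close to the 49.2% called among all genes tested. *Ogdh*, the first enzyme of the oxoglutarate dehydrogenase complex, rose by 0.32 (limma adjusted p = 0.0137) and its core *Dlst* fell by 0.26 (limma adjusted p = 0.0276). The call of *Ogdh* was lost without vehicle replicate 1 (0.28, limma adjusted p = 0.0633). It was also lost with correction for transcript length, at 0.13 (limma adjusted p = 0.228). That of *Dlst* was lost without vehicle replicate 1, vehicle replicate 2 or melatonin replicate 2 (−0.26, −0.23 and −0.22, limma adjusted p = 0.0854, 0.111 and 0.0873), without the trend (adjusted p = 0.0689) and with the replicate block (adjusted p = 0.0649). *Gcsh*, the lipoyl protein of the glycine cleavage system that DLD reoxidizes, fell from 1703 ± 112 to 874 ± 123, by 0.97 (limma adjusted p = 0.000304). *Ppm1k*, the phosphatase of the branched-chain complex, rose by 0.58 (limma adjusted p = 0.0153), or 0.52 without vehicle replicate 2, where it was not called (limma adjusted p = 0.062). Its call was also lost with corrections for transcript length (0.35, limma adjusted p = 0.117) and GC content (0.38, limma adjusted p = 0.0668). *Dld*, shared by all of these complexes, was not called.

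**Figure D4:**
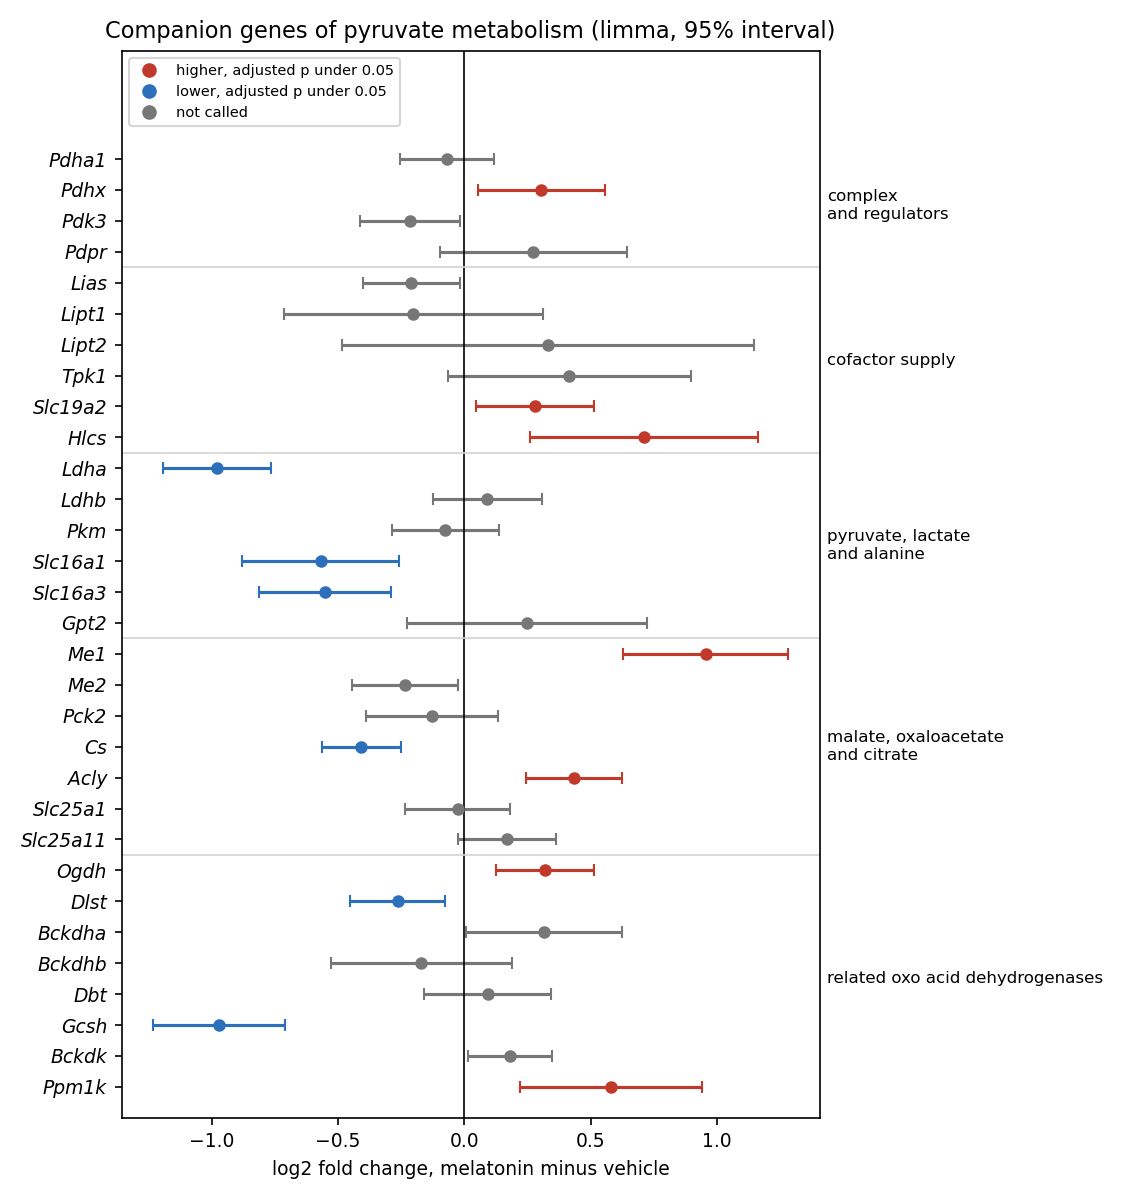
Log2 fold change of melatonin over vehicle (horizontal axis) for the 31 companion genes tested, in 5 groups by role, as limma estimates with 95% intervals, with calls at adjusted p under 0.05 in red (7 higher) and blue (6 lower). *Me1* and *Hlcs* lay farthest to the right, and *Ldha* and *Gcsh* farthest to the left.

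Melatonin replicate 1 stood apart from the other melatonin samples in *Pdk2* (382 against 229 and 217) and *Pdp2* (120.5 against 201 and 211). It also held the highest *Pcx* and the lowest *Mpc1*, *Dld* and *Pdk1* of its group. Over all genes tested it also lay apart, at 79.7 on the second axis of a principal component analysis. Melatonin replicates 2 and 3 lay at −53.8 and −45.7 on that axis. Ranks alone do not set a sample apart, since each gene has a highest and a lowest sample. Melatonin replicate 2 held the highest *Mpc1*, *Pdhb*, *Dlat*, *Dld*, *Pdk1* and *Pdp1* and the lowest *Mpc2*. Melatonin replicate 3 held the lowest *Pdhb*, *Dlat*, *Pdk2*, *Pdp1* and *Pcx* and the highest *Mpc2* and *Pdp2*. Without melatonin replicate 1 *Pcx*, *Pdp1* and *Pdk2* were called higher and 0 of the 10 lower. That sample was also the only melatonin library with Y-linked transcripts, which all vehicle libraries held. The part of animal sex in these differences and in the contrast with vehicle was not tested. The plot of estimates under the alternatives shows how far each gene moved.

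**Figure D5:**
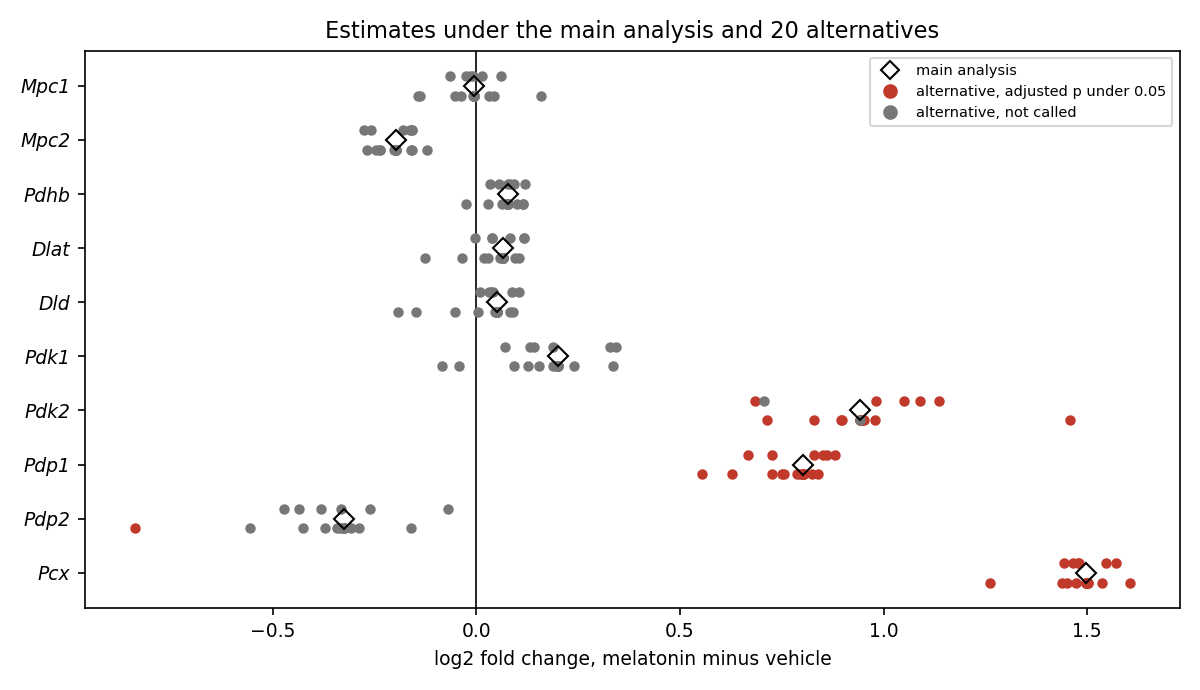
Log2 fold change of melatonin over vehicle (horizontal axis) for the 10 genes in the main analysis (open diamonds) and 20 alternatives (circles, red at limma adjusted p under 0.05), with analyses that left out 1 sample drawn above the line of each gene and the others below. *Pcx* and *Pdp1* were called in 20 of 20, *Pdk2* in 18, *Pdp2* in 1 and the other 6 in 0.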

How the data were processed

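Bulk RNA sequencing was done on aILC2s in 3 vehicle and 3 melatonin samples, from cDNA made with a low-input SMARTer kit. In Partek Flow the authors trimmed the reads, ran STAR against mm39, assigned reads to Gencode M33 genes with the E/M algorithm, removed genes with few counts and normalized by the DESeq2 median ratio. The deposited unit is a signal, that is, an estimated read number over a size factor, and is called normalized count. At a tolerance of 0.01 of a read, 64.7% of values were whole multiples of 1 read, so whole reads were not recovered. Of 16381 genes, 16334 matched a name in GENCODE M39.

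limma 3.58.1 in R 4.3.3 (lmFit, eBayes with trend) was run on log2(normalized count + 1) for the 14419 genes with at least 10 in at least 1 sample, with treatment as the only term and Benjamini-Hochberg adjustment at 0.05. The fold change understates changes of low genes. The script was tested on simulated data. Near copies share at least 200 transcript bases at 90% identity or more. Tables were made with pandas 2.3.3 and numpy 2.4.6 and figures with matplotlib 3.10.9.

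The 10 genes and the lists of companions and markers were chosen with earlier results of these data known. All 10 are named, as are companions of the complex, and of the other companions only ones past the threshold or used as a contrast (*Pkm*). Results for some listed genes and markers are not reported here. Alternatives were pseudocounts of 0.1 and 10, no filter, a mean of at least 100, same total, upper quartile, quantile normalization, no trend, sample weights, voom on estimated counts, a block for replicate number, leaving out each sample in turn and a threshold of 0.01. Corrections for transcript length and GC content (lowess, span 0.3) and a fit on libraries with Y-linked transcripts were chosen after seeing the data.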

Additional observations from a re-analysis of the deposited data

How the results depend on the processing

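Of the 10 pyruvate genes, 3 were called higher in the main analysis and in 20 of 20 alternatives for *Pcx* and *Pdp1* and 18 for *Pdk2*, which lost its call in limma without the trend (0.94) and without vehicle replicate 3 (0.71). At a threshold of 0.01, 2 of the 10 genes were called higher and *Pdk2* was not. Signs reversed for genes that were not called. *Mpc1* was 0.032 with samples scaled to the same total, 0.043 with sample weights, 0.16 with correction for transcript length and between −0.065 and 0.061 with a sample left out. *Dlat* was −0.126 with correction for length, −0.035 with correction for GC content and between −0.004 and 0.118 with a sample left out. *Dld* was −0.192, −0.147 and −0.053 with correction for length, for GC content and in libraries with Y-linked transcripts. *Pdk1* was −0.043 with correction for length and −0.083 in libraries with Y-linked transcripts, and *Pdhb* was −0.025 with correction for GC content. The causes were not tested.

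In libraries with Y-linked transcripts, 1 of the 10 genes (*Pdp2*) and 11 companions were called lower, against 6 companions in all libraries, while 9 companions were called higher. Over all genes tested this fit called 3436 higher and 3774 lower. This fit has 1 melatonin sample, which is assumed to vary like the vehicle samples. For *Pdp2* the coefficient of variation was 8.51% in vehicle and 28.0% with melatonin. No conclusion is therefore drawn from the calls of this fit. With correction for length, 1 companion was called higher and 9 lower, and 2654 genes of all tested were higher and 4178 lower. Companions called higher numbered 2 at a threshold of 0.01, and between 4 and 8 with a sample left out, with 4 without vehicle replicate 1 or 2. Genes of all tested that were called higher also fell in number there, to 2747 without vehicle replicate 1 and 2770 without vehicle replicate 2. At 0.01, 2188 genes of all tested were higher and 2267 lower, against 3529 and 3565 at 0.05. The median of all genes moved by less than 0.1 under each alternative.

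Same-numbered samples did not deviate together (correlations −0.054, 0.00644 and −0.0483 for numbers 1, 2 and 3, with 0.113 the highest of all 9 pairs). With 3 samples in a group this cannot tell whether they share more than a number. For numbers 2 and 3 the vehicle sample held Y-linked transcripts and the melatonin sample did not. With the replicate block, 3 of the 10 genes were higher and 0 lower, 5 companions higher and 6 lower, and 3160 genes of all tested higher and 3278 lower. *Pdk2* and *Pdp2*, which had the lowest mean counts of the 10 genes, had the widest intervals.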
